A study of Homo sapiens with 12 samples.

Results

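The uveal melanoma lines OCM1 and MUM2B were compared for how their transcriptomes differed between cells overexpressing the long non-coding RNA CANT1 and wild type cells, with emphasis on genes that moved in opposite directions in the 2 lines. CANT1 is here the transcript CASC15-NT1 of the CASC15 locus, not the nucleotidase gene of the same symbol. The 8 arrays of replicates 2 and 3, of 12 in the series, were used: 2 each of OCM1 CANT1, OCM1 wild type, MUM2B CANT1 and MUM2B wild type. Biotinylated cRNA made from total RNA had been measured on Affymetrix arrays. The growth label of these 8 samples names serum-containing DMEM for CANT1 and wild type cells alike, and the wild type samples are the labelled controls. The labels name no vector control and do not say whether the overexpressing cells are 1 clone or a pool, nor whether replicates were separate cultures, so the p-values measure the spread between these arrays, which may be technical. No probe set was matched to the lncRNA itself, and the labels could therefore not be checked against its level.

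The interaction tested was the difference CANT1 minus wild type in OCM1, less the same difference in MUM2B. A positive interaction means that the CANT1 difference was higher in OCM1 than in MUM2B. All levels are log2(signal + 32), with the signal of each array scaled to a 2% trimmed mean of 500, and all differences are on that scale, which understates changes of dim genes. A gene was represented by its brightest probe set, and 12372 of 18132 genes reached a signal of 100 on at least 2 of the 8 arrays and were tested. An effect passed at a Benjamini-Hochberg adjusted p under 0.05 over those 12372 genes (limma). The median standard error was 0.151 for the interaction and 0.107 for the difference in 1 line.

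Replicates 2 and 3 of a group correlated at 0.994 to 0.995. The 4 arrays of replicate 1, whose growth label names puromycin selection and which were outside the fit, stood apart. Their log2 ratio of the 3' to the 5' ACTB probe set, a measure of RNA integrity and labelling, was 2.15 to 2.51. On the 8 arrays used it was 0.911 and 0.845 in OCM1 CANT1, against 0.75 and 0.666 in OCM1 wild type, and 0.526 and 0.584 in MUM2B CANT1, against 0.55 and 0.473 in MUM2B wild type. It was thus higher with CANT1 on both OCM1 arrays, while the MUM2B groups overlapped, and its part in the results was not tested. Pigment cell markers were far lower in MUM2B than in OCM1. The summed signal of the 24 pigment markers with a probe set was 112000 to 115000 in OCM1 CANT1 and 117000 to 119000 in OCM1 wild type, against 5760 to 5830 in MUM2B CANT1 and 5100 to 5260 in MUM2B wild type. Among them, MLANA, TYRP1 and S100B stayed under a signal of 100 on all 4 MUM2B arrays (at most 55.3, 38.8 and 74.1). MITF, SOX10, PMEL and TYR reached at most 161, 152, 166 and 126 there. RAB38, GPNMB, RAB27A and MYO5A reached 1290, 1050, 613 and 462 in MUM2B, still below OCM1. SYTL2 was at 846 to 1030 in MUM2B, against 34.5 to 48 in OCM1 wild type and 2030 to 2060 in OCM1 CANT1. Markers of other cell types went both ways. The fibroblast markers LUM and PRRX1 reached 1440 and 564 in OCM1 and 37.4 and 55.3 in MUM2B. Another fibroblast marker, TWIST2, reached 2190 in MUM2B and 47.3 in OCM1. The keratins KRT7, KRT8 and KRT18 were higher in MUM2B, where their signals reached 12400, 7930 and 15100. However, EPCAM and CDH1 stayed below 50 in both lines, and the epithelial marker ESRP1 reached 212 in OCM1 and 38 in MUM2B. The endothelial markers CDH5, TIE1 and ROBO4 reached 4630, 2260 and 1590 in MUM2B and no more than 80.6 in OCM1, and ENG reached 4180 in MUM2B and 647 in OCM1. The summed signal of 16 endothelial markers was 12600 and 13200 in MUM2B CANT1 and 10600 and 11500 in MUM2B wild type. Of these 16, however, 5 (CD34, CLDN5, EMCN, FLT1 and TEK) stayed under 100 on all 8 arrays. PECAM1 and KDR reached no more than 165 and 198 in MUM2B, and VWF reached 154 in MUM2B and 197 in OCM1. MUM2B, labelled a uveal melanoma line, thus had MLANA, TYRP1 and S100B under a signal of 100 on the arrays, but not every pigment marker.

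As background, a long non-coding RNA does not code for protein and can act on neighbouring genes or on chromatin elsewhere. Cholesterol synthesis is a well understood example of genes that move as a block. When membrane sterol is low, the transcription factors SREBP1 and SREBP2 (genes SREBF1 and SREBF2) are released from the endoplasmic reticulum and switch on the enzymes of the pathway, and the retention protein INSIG1 holds them back when sterol is ample. NF-kB, a transcription factor of inflammation, likewise switches on cytokines together with its own inhibitors.

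Singly, the CANT1 difference passed for 1719 genes up (13.9%) and 1189 down (9.61%) in OCM1, and for 1768 up (14.3%) and 1279 down (10.3%) in MUM2B. The interaction passed for 2712 of 12372 genes (21.9%). Of these, 1393 (11.3%) were higher in OCM1 and 1319 (10.7%) lower. Both lines passed singly, with opposite signs and a passing interaction, for 310 genes (2.51%). In bulk RNA fewer cells of a kind and less RNA per cell cannot be told apart. In 154 of the opposed genes (1.24%) CANT1 cells were higher in OCM1 and lower in MUM2B, and in 156 (1.26%) the other way round. Of the 930 genes that passed in both lines (7.52%), the other 620 (5.01%) had 1 sign, 400 (3.23%) higher and 220 (1.78%) lower with CANT1. Opposition was usually moderate. The median absolute interaction was 0.964 for genes up in OCM1 and down in MUM2B and 1.01 for genes down in OCM1 and up in MUM2B, and a change of at least 2-fold in each line was reached by 1 gene of each kind, SLC26A2 and INSIG1. Most passing interactions came from 1 line alone: 639 genes rose and 421 fell in OCM1 with MUM2B not passing, and 614 rose and 435 fell in MUM2B with OCM1 not passing. Across all tested genes, which are not independent replicates, the CANT1 differences of the 2 lines, which share no array, correlated at r = 0.142.

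**Figure D1:**
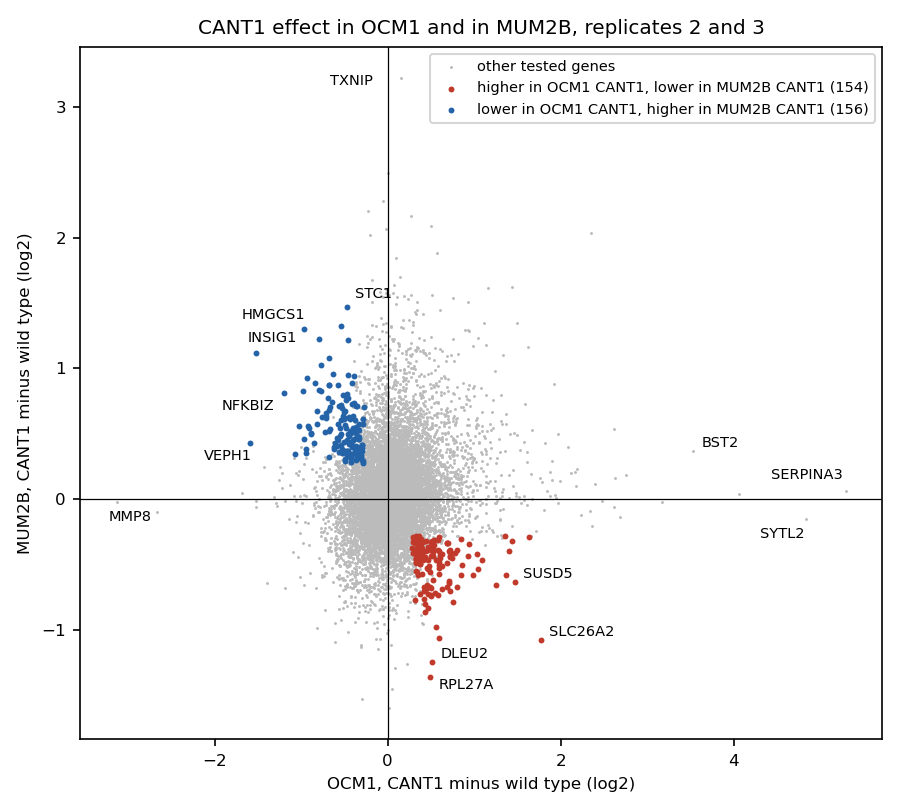
Each point is a tested gene, with the CANT1 minus wild type difference of OCM1 on the x axis and of MUM2B on the y axis (log2, replicates 2 and 3). The 154 genes higher with CANT1 in OCM1 and lower in MUM2B (red, lower right) and the 156 genes of the reverse kind (blue, upper left) lie mostly within 1 unit of 0, while SERPINA3, SYTL2, BST2, MMP8 and TXNIP lie far out along 1 axis.

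These counts rested on few arrays. A fit of all 12 arrays with a term for the labelled set passed 6 genes (5 higher and 1 lower in OCM1) and no opposed gene, and of the 224 genes singled out by rule or list, 4 (AMPH, APOC2, NEFL and SFRP1) passed in it. Without 1 array the opposed counts, up in OCM1 with down in MUM2B and then the reverse, were 76 and 60 (OCM1 CANT1 replicate 2), 86 and 87 (OCM1 CANT1 replicate 3), 114 and 92 (OCM1 wild type replicate 2), 88 and 64 (OCM1 wild type replicate 3), 54 and 70 (MUM2B CANT1 replicate 3), 56 and 65 (MUM2B wild type replicate 2), and 89 and 134 (MUM2B wild type replicate 3). The interaction counts moved by over 1.5 times to 885 higher and 872 lower without OCM1 CANT1 replicate 2 and to 922 and 811 without MUM2B wild type replicate 2, and the lower count alone to 759 without OCM1 wild type replicate 3 and 830 without MUM2B CANT1 replicate 3.

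Genes of sterol and fatty acid synthesis, which make cholesterol and membrane lipids, were lower with CANT1 in OCM1 and higher in MUM2B in many cases. Of 33 listed genes 27 were tested, and 16 of them (59.3%, against 10.7% of all tested genes) had a lower CANT1 difference in OCM1 than in MUM2B, while ELOVL6, a fatty acid elongase, was the 1 gene higher in OCM1. Fully opposed, down in OCM1 and up in MUM2B, were 11 of the 27 (40.7%, against 1.26%), and none was opposed the other way. The median difference of the 27 was -0.338 in OCM1 and 0.439 in MUM2B, and the median interaction was -0.657, against 0.0331 over all tested genes. The 11 opposed genes were INSIG1, ACAT2, HMGCS1, MVD, IDI1, FDPS, SQLE, MSMO1, NSDHL, DHCR7 and SCD. The other 5 with a lower difference in OCM1 were EBP, which fell in OCM1 alone, MVK, HSD17B7 and SREBF2, which rose in MUM2B alone, and FASN, for which neither line passed singly. Without 1 array the 11 became 5 (without OCM1 CANT1 replicate 2, OCM1 wild type replicate 3, MUM2B CANT1 replicate 3 or MUM2B wild type replicate 2) or 7 (without OCM1 wild type replicate 2).

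Promoters of 4 of these genes are shown because 8 of the 9 opposed sterol genes with a promoter in the RefSeq table (88.9%) held the letters CCAAT on one strand or the other. The letters were also common in the whole list, in 17 of its 24 tested members with a promoter (70.8%). They were in 35.7% of 27305 promoters of the same length, 36.2% of 10134 tested genes and 43.9% of the 123 promoters of genes down in OCM1 and up in MUM2B. CCAAT is the core bound by the factor NF-Y, which is known to act beside SREBP. The promoters run from upstream of the start of the gene to just past it and are written 5' to 3' on the gene's own strand (RefSeq, GRCh38.p14), with CCAAT, or ATTGG where it lies on the opposite strand, in capitals. They lie at chr5:43313363-43313662 (minus strand), chr4:165327419-165327718 (plus strand), chr7:155297628-155297927 (plus strand) and chr10:1056655-1056954 (minus strand), the last being the opposed gene with no match. HMGCS1 had 2 matches, MSMO1 4 and INSIG1 1.
HMGCS1: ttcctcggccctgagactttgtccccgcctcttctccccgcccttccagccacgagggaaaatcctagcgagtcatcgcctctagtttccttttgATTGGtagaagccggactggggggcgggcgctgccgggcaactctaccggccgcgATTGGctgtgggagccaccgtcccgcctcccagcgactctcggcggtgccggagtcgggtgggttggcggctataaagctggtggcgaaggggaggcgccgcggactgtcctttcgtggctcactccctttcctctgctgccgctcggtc
MSMO1: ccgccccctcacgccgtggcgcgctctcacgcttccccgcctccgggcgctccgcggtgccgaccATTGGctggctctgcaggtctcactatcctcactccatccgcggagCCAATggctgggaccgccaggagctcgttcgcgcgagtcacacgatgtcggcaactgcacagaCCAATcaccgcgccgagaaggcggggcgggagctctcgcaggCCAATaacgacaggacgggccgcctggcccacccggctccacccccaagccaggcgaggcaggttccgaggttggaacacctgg
INSIG1: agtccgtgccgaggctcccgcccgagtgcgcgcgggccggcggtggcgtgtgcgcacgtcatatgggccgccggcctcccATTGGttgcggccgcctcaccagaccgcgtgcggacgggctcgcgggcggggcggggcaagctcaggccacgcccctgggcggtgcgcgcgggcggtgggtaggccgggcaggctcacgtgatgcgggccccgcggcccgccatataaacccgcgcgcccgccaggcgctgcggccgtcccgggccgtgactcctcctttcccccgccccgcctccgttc
IDI1: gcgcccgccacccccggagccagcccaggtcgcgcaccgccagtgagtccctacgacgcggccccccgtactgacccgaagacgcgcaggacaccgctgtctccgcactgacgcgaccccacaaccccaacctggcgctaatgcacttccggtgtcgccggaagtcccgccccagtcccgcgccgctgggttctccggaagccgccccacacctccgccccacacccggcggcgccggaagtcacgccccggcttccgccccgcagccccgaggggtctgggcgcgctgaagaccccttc
The sterol regulatory element written as TCACNCCAC was found on either strand in none of the 9 opposed promoters and in 1.15% of all promoters, and the E-box CACGTG in 1 of the 9 (INSIG1) and in 7.43% of all. CACGTG reads the same on both strands. A match of letters is a description and not a binding site.

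INSIG1, which retains the SREBP complex in the endoplasmic reticulum, had the largest opposed interaction of the genes lower in OCM1. Its level was 9.12 and 9.68 in OCM1 CANT1, against 11.01 and 10.85 in OCM1 wild type, and 11.13 and 11.33 in MUM2B CANT1, against 9.78 and 10.43 in MUM2B wild type. The CANT1 arrays were thus the lowest of OCM1 and the highest of MUM2B, with no overlap. The difference was -1.53 ± 0.21 in OCM1 and 1.12 ± 0.21 in MUM2B (SE), and the interaction -2.65 ± 0.30 (adjusted p = 0.000254). HMGCS1 makes HMG-CoA, the substrate of the rate-limiting reductase. It stood at 9.02 and 8.89 in OCM1 CANT1, against 9.84 and 10.00 in OCM1 wild type, and at 10.72 and 11.35 in MUM2B CANT1, against 9.42 and 10.04 in MUM2B wild type. In MUM2B both groups were higher on replicate 3 than on replicate 2, and the groups still did not overlap. Its interaction was -2.27 ± 0.30 (adjusted p = 0.000673). MSMO1 removes methyl groups from early sterols. It read 10.30 and 10.56 in OCM1 CANT1, against 11.24 and 11.22 in OCM1 wild type, and 11.92 and 12.36 in MUM2B CANT1, against 10.72 and 11.12 in MUM2B wild type, again with both CANT1 groups clear of their wild type and on opposite sides, and its interaction was -2.02 ± 0.23 (adjusted p = 0.000278).

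The other opposed enzymes lie along the whole pathway. ACAT2, which joins acetyl-CoA units at its start, had an interaction of -1.42 ± 0.18 (adjusted p = 0.000459). Of the isoprenoid steps, IDI1 had -1.55 ± 0.22 (adjusted p = 0.00105), with levels of 9.89 and 10.06 in OCM1 CANT1, against 10.66 and 10.64 in OCM1 wild type, and 10.97 and 11.36 in MUM2B CANT1, against 10.07 and 10.51 in MUM2B wild type. MVD had -0.79 ± 0.16 (adjusted p = 0.00532) and FDPS -1.02 ± 0.14 (adjusted p = 0.001). In the sterol branch, squalene epoxidase (SQLE) had -1.24 ± 0.20 (adjusted p = 0.00191), the dehydrogenase NSDHL -0.66 ± 0.15 (adjusted p = 0.00958), and DHCR7, the last reductase before cholesterol, -1.33 ± 0.22 (adjusted p = 0.00228). SCD, which makes monounsaturated fatty acids, stood at 12.15 and 12.35 in OCM1 CANT1, against 12.76 and 12.81 in OCM1 wild type, and at 13.28 and 13.35 in MUM2B CANT1, against 12.77 and 13.04 in MUM2B wild type, and its interaction was -0.95 ± 0.16 (adjusted p = 0.00265). In each of the 11 genes both CANT1 arrays lay below both wild type arrays in OCM1 and above both in MUM2B. The differences ranged from -1.53 to -0.338 in OCM1 and from 0.319 to 1.30 in MUM2B. EBP, the sterol isomerase, fell in OCM1 (-0.87 ± 0.11, adjusted p = 0.000285), and its MUM2B difference of 0.23 ± 0.11 did not pass. Other enzymes of the pathway were not opposed by the test. PMVK, a mevalonate pathway kinase, fell in MUM2B (-0.31, adjusted p = 0.0362), and LSS, SC5D and TM7SF2, of the sterol branch, had interactions of -0.44, -0.39 and -0.35 that did not pass, with OCM1 differences of -0.35, 0.33 and 0.18. PNPLA3, a lipase of lipid droplets and known SREBP1 target that is not on the list, was also opposed, with an interaction of -1.76 ± 0.23 (adjusted p = 0.000567).

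**Figure D2:**
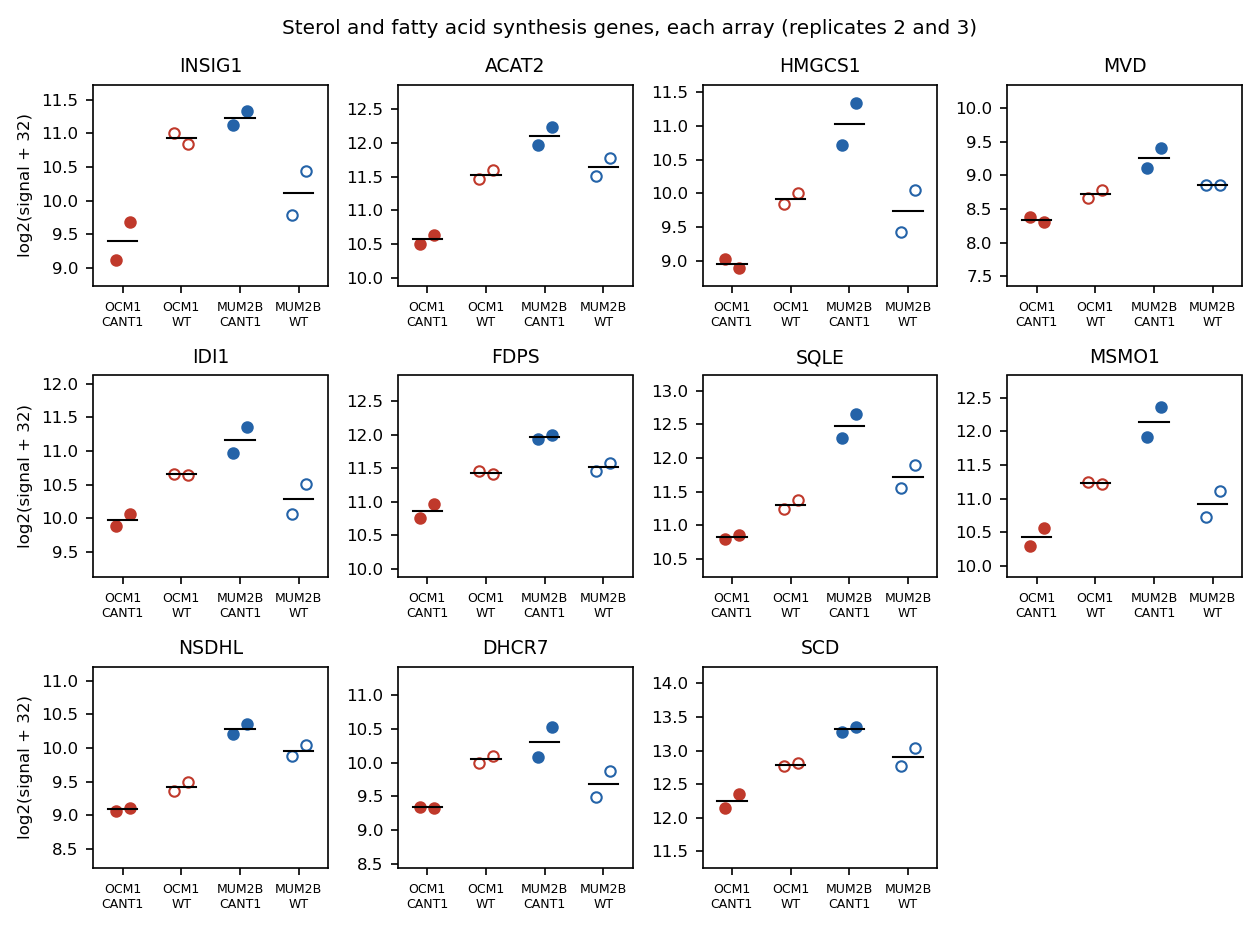
Each panel is 1 of the 11 opposed sterol and fatty acid genes, with log2(signal + 32) on the y axis (same span in each panel) and 1 point per array (filled: CANT1, open: wild type, red: OCM1, blue: MUM2B; bar: mean of 2). The CANT1 points lie below wild type in OCM1 and above it in MUM2B, and in several genes both MUM2B replicates 3 lie above replicates 2.

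Of the transcription factors, SREBF2 had a level of 10.16 and 10.06 in OCM1 CANT1, against 10.33 and 10.22 in OCM1 wild type, and of 9.68 and 10.34 in MUM2B CANT1, against 9.28 and 9.44 in MUM2B wild type. Its rise in MUM2B was 0.65 ± 0.17 (adjusted p = 0.0182), carried mostly by replicate 3, and the interaction of -0.82 ± 0.24 (adjusted p = 0.0329) was lost in 7 of the alternatives tried besides the 12-array fit. SREBF1 did not pass in either line, with differences of -0.12 ± 0.10 in OCM1 and -0.18 ± 0.10 in MUM2B (adjusted p = 0.427 and 0.217).

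Replicate 1, with 1 array per group and no test, is set beside these values. The INSIG1 difference was -1.64 in OCM1 and -1.22 in MUM2B, that of HMGCS1 -0.01 and -1.38, and that of MSMO1 -0.40 and -1.58. Among the 11 opposed genes 9 were below 0 in OCM1, as in the other replicates, and 11 were below 0 in MUM2B, where all had risen in replicates 2 and 3. Over the 27 tested list members the medians were -0.09 in OCM1 and -0.51 in MUM2B. The fall in MUM2B on replicate 1 was thus opposite to the rise on replicates 2 and 3.

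Other leading genes down in OCM1 and up in MUM2B came from outside lipid synthesis. NFKBIZ, an inducible member of the NF-kB inhibitor family that acts in the nucleus, had levels of 10.32 and 10.32 in OCM1 CANT1, against 11.49 and 11.55 in OCM1 wild type, and of 9.87 and 10.14 in MUM2B CANT1, against 9.07 and 9.31 in MUM2B wild type. Neither pair of groups overlapped. Its interaction was -2.01 ± 0.16 (adjusted p = 3.52e-05). CASP1, the caspase that cleaves the interleukin-1 beta precursor, stood at 6.95 and 7.25 in OCM1 CANT1, against 7.86 and 8.30 in OCM1 wild type, and at 8.16 and 8.51 in MUM2B CANT1, against 7.37 and 7.65 in MUM2B wild type, with an interaction of -1.81 ± 0.24 (adjusted p = 0.000734). In OCM1 it was lower with CANT1 on both arrays, and in MUM2B higher on both. CAPG, which caps actin filaments, was shifted by a like amount in each line, -0.93 ± 0.10 in OCM1 and 0.93 ± 0.10 in MUM2B, and its interaction was -1.86 ± 0.14 (adjusted p = 2.02e-05). Its 4 probe sets gave interactions of -1.87 to -1.82.

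STC1, a secreted glycoprotein of calcium and phosphate balance, stood at 6.93 and 6.85 in OCM1 CANT1, against 7.49 and 7.23 in OCM1 wild type, and at 10.62 and 11.15 in MUM2B CANT1, against 9.37 and 9.45 in MUM2B wild type, without overlap in either line. Its difference was -0.47 ± 0.15 in OCM1 and 1.47 ± 0.15 in MUM2B. The endocytic adaptor STON1 had an interaction of -1.87 ± 0.18 (adjusted p = 9.21e-05), the RING finger gene LONRF1 -1.80 ± 0.22 (adjusted p = 0.000397) and KLHL7, an adaptor of a ubiquitin ligase, -1.72 ± 0.19 (adjusted p = 0.000241). VEPH1 had -2.02 ± 0.17 (adjusted p = 3.75e-05), mostly from its fall in OCM1 (-1.59 ± 0.12). Probe sets disagreed for 2 of these genes: 1 of 3 VEPH1 probe sets had an interaction of 1.18 and 1 of 4 KLHL7 probe sets one of 0.313.

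From the lists of related genes, further members down in OCM1 and up in MUM2B were the zinc finger factors KLF6 (interaction -1.32 ± 0.14, adjusted p = 0.000174) and KLF2 (interaction -1.41 ± 0.17, adjusted p = 0.000374). They were 2 of 23 tested early response factors (8.7%, against 1.26% of all tested genes). KLF6 stood at 10.00 and 10.08 in OCM1 CANT1, against 10.98 and 10.98 in OCM1 wild type, and at 10.70 and 10.89 in MUM2B CANT1, against 10.37 and 10.46 in MUM2B wild type. The apoptosis inhibitor BCL2A1 (interaction -1.54 ± 0.16, adjusted p = 0.000174) joined CASP1 as the 2 opposed of 34 apoptosis regulators (5.88%, against 1.26%). LTBP1, which holds latent TGF-beta in the matrix, had -1.60 ± 0.21 (adjusted p = 0.000551), the membrane matrix protease MMP14 -1.27 ± 0.16 (adjusted p = 0.000555), and the semaphorin SEMA3A and the semaphorin receptor PLXNC1 -0.96 ± 0.16 (adjusted p = 0.00261) and -1.16 ± 0.19 (adjusted p = 0.00207). GPNMB, a melanosomal glycoprotein, read 12.99 and 13 in OCM1 CANT1, against 13.65 and 13.68 in OCM1 wild type, and 10.00 and 10.08 in MUM2B CANT1, against 9.44 and 9.57 in MUM2B wild type, so that it was lower with CANT1 on both OCM1 arrays and higher on both MUM2B arrays. The neuronal enolase ENO2, of 32 glycolysis and hypoxia genes, had -0.91 ± 0.13 (adjusted p = 0.00101), and the centromere and checkpoint genes HJURP and BUB1 had -0.85 ± 0.13 (adjusted p = 0.0017) and -0.71 ± 0.14 (adjusted p = 0.00465).

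In the reverse direction, SLC26A2, the sulfate transporter that supplies proteoglycan sulfation, led all opposed genes. Its level was 13.36 and 13.32 in OCM1 CANT1, against 11.58 and 11.56 in OCM1 wild type, and 10.72 and 10.36 in MUM2B CANT1, against 11.60 and 11.64 in MUM2B wild type. The OCM1 CANT1 arrays were the highest of the 8, and the MUM2B CANT1 arrays the lowest. The difference was 1.77 ± 0.12 in OCM1 and -1.08 ± 0.12 in MUM2B, and the interaction 2.85 ± 0.16 (adjusted p = 3.67e-06), and its 4 probe sets gave 2.85 to 3.08. SUSD5, a sushi domain gene, stood at 12.09 and 12.27 in OCM1 CANT1, against 10.89 and 10.53 in OCM1 wild type, and at 7.65 and 7.37 in MUM2B CANT1, against 8.17 and 8.12 in MUM2B wild type, with an interaction of 2.11 ± 0.19 (adjusted p = 7.39e-05). EMC10, a subunit of the endoplasmic reticulum membrane complex, read 7.44 and 7.30 in OCM1 CANT1, against 6.01 and 6 in OCM1 wild type, and 10.67 and 10.27 in MUM2B CANT1, against 11.03 and 11.07 in MUM2B wild type, with an interaction of 1.95 ± 0.18 (adjusted p = 6.87e-05), and its OCM1 wild type level was close to the lower end of the scale. Groups of neither gene overlapped in either line.

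The next genes differed in which line carried the interaction. RPL27A, a ribosomal protein gene, fell by 1.36 in MUM2B, with levels of 7.27 and 7.26 in MUM2B CANT1, against 8.63 and 8.62 in MUM2B wild type, and rose by 0.49 ± 0.09 in OCM1. Its interaction was 1.85 ± 0.13 (adjusted p = 1.67e-05). It was the 1 opposed gene of 70 ribosomal protein genes tested (1.43%, near the 1.24% of all tested genes). Of the 70, 3 (4.29%, against 11.3%) had a higher and 1 (1.43%, against 10.7%) a lower difference in OCM1. DLEU2, the host transcript of the microRNAs miR-15a and miR-16-1, and WDR73 likewise moved more in MUM2B (-1.25 ± 0.12 and -1.07 ± 0.11) than in OCM1 (0.51 ± 0.12 and 0.59 ± 0.11). The opposite held for PLAGL1, an imprinted zinc finger factor, with 1.40 ± 0.10 in OCM1 and -0.40 ± 0.10 in MUM2B, and for TTC39C, TMEM18 and FAM169A, whose OCM1 rises were 1.64, 1.43 and 1.35 and whose MUM2B falls were -0.29, -0.32 and -0.28. CHAMP1, a kinetochore protein of chromosome alignment, had an interaction of 1.91 ± 0.18 (adjusted p = 8.43e-05) and the pseudogene ZNF252P 1.58 ± 0.18 (adjusted p = 0.000243).

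The list of metallothionein and oxidative stress genes held 3 further members of this kind among 25 tested, against 1.24% of all tested genes. These 3 belong to glutathione supply and its NRF2 programme, which protects cells from oxidants. SLC7A11, the cystine importer, stood at 11.02 and 10.87 in OCM1 CANT1, against 10.00 and 9.91 in OCM1 wild type, and at 10.51 and 10.20 in MUM2B CANT1, against 10.95 and 10.91 in MUM2B wild type, with an interaction of 1.57 ± 0.16 (adjusted p = 0.000153). The quinone reductase NQO1 had 1.12 ± 0.17 (adjusted p = 0.0014) and GCLM, a subunit of glutamate-cysteine ligase, 0.70 ± 0.13 (adjusted p = 0.00471). All 3 were higher with CANT1 on both OCM1 arrays and lower on both MUM2B arrays. The catalytic subunit GCLC rose in OCM1 (0.64 ± 0.10), and its MUM2B difference of -0.26 ± 0.10 did not pass. Of the 25 oxidative stress and metallothionein genes tested, 6 (24%, against 11.3% of all tested genes) had a higher and 2 (8.0%, against 10.7%) a lower difference in OCM1, and the list median of the interaction was 0.202. SPP1, the matrix protein osteopontin (interaction 1.54 ± 0.19, adjusted p = 0.000421), the YAP target CRIM1 (interaction 1.11 ± 0.13, adjusted p = 0.000341) and the growth factor BDNF (interaction 0.99 ± 0.13, adjusted p = 0.000512) were also up in OCM1 and down in MUM2B.

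**Figure D3:**
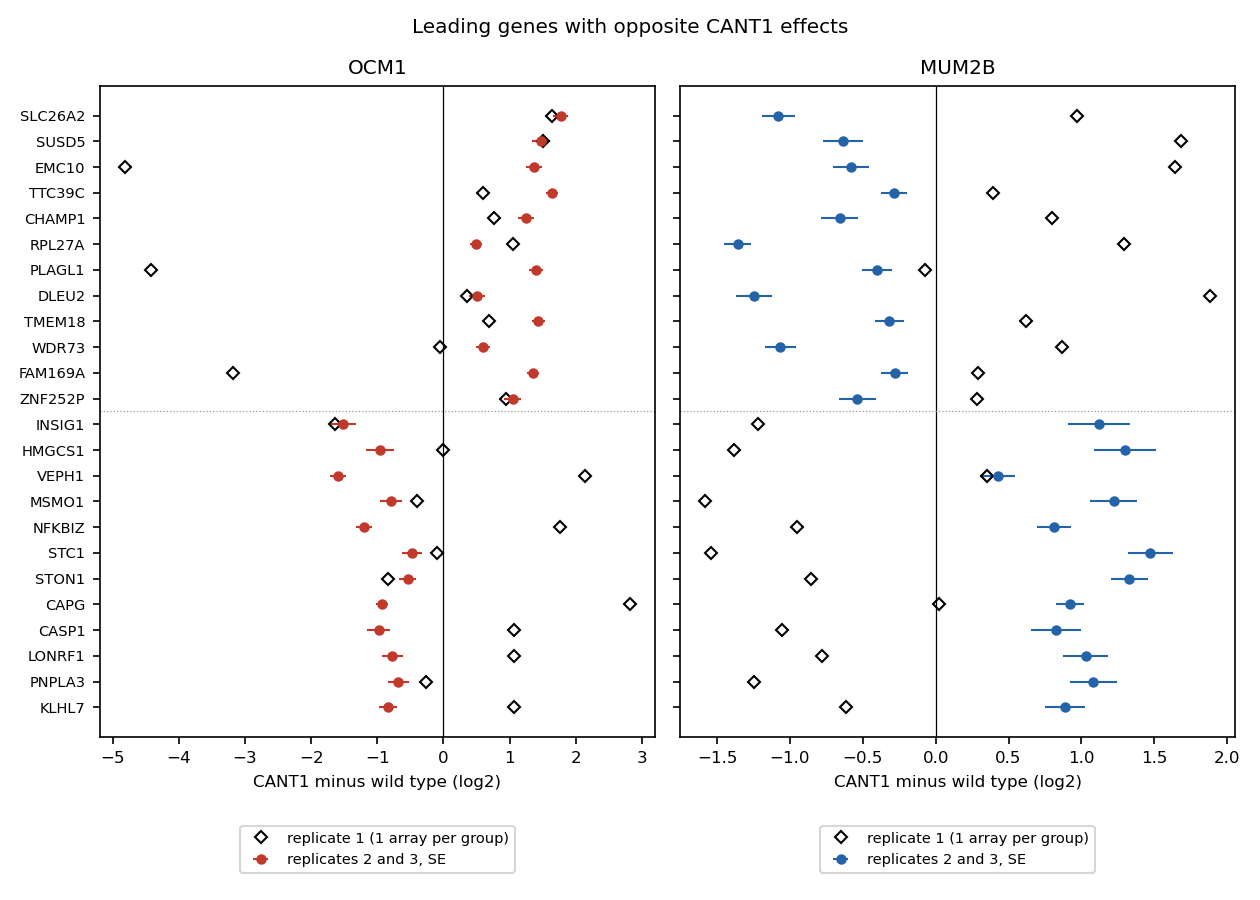
The 12 leading genes up in OCM1 and down in MUM2B (top) and the 12 of the reverse kind (bottom), with the CANT1 minus wild type difference on the x axis (log2, separate scales for OCM1 left and MUM2B right). Filled points with bars are replicates 2 and 3 with the SE of the fit, and open diamonds replicate 1. In MUM2B 3 of the 24 diamonds lie on the side of the filled points, and in OCM1 14.

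On replicate 1 the opposed genes mostly had other signs. The MUM2B difference kept its sign in 25 of the 154 genes up in OCM1 and down in MUM2B (16.2%) and in 29 of the 156 of the reverse kind (18.6%), against 32.3% of all tested genes. The OCM1 difference kept it in 57 (37%) and 68 (43.6%), against 43% of all. Low shares in MUM2B were also found among other genes: among the 3047 genes that passed in MUM2B 12.6% kept their sign, and among the 620 genes that passed in both lines in 1 direction 12.1%. The interaction had the same sign in 35 (22.7%) and 47 (30.1%) of the opposed genes, against 44.0% of all tested genes. Of the leading 24 genes, SLC26A2 had differences of 1.63 in OCM1 and 0.97 in MUM2B on replicate 1, so that its rise in OCM1 recurred and its fall in MUM2B did not. EMC10, PLAGL1 and FAM169A were -4.81, -4.42 and -3.18 in OCM1. The OCM1 wild type array of replicate 1 correlated at a mean of 0.826 with the other OCM1 arrays, whose own means were 0.935 to 0.949. Pigment markers were low on it: GPNMB and GPR143 stood at 9.47 and 8.73, against 12.90 and 12.54 on OCM1 CANT1 replicate 1. The median replicate 1 interaction of the 21 tested pigment markers was 3.37, with 1 below 0, against -0.075 on replicates 2 and 3. How far this array shaped the OCM1 differences of replicate 1 and the 12-array fit was not tested. Across all tested genes the interaction of replicates 2 and 3 and that of replicate 1 correlated at r = -0.271. If the MUM2B labels of replicates 2 and 3 were exchanged, every MUM2B sign there would turn. The 310 opposed genes would then have moved in 1 direction, and the 620 genes of 1 direction would have opposite signs. If the MUM2B labels of replicate 1 were exchanged instead, only the replicate 1 signs would turn, and the opposed genes would stay as they are. The labels settle neither, the level of the lncRNA could not be used to check them, and neither was tested. Growth label, ACTB ratio and replicate number cannot be told apart here.

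Some genes with large interactions passed in 1 line alone. The acute phase inhibitor SERPINA3 stood at 14.17 and 13.69 in OCM1 CANT1, against 8.86 and 8.42 in OCM1 wild type, whereas its MUM2B levels were 6.54 and 6.97 in CANT1 and 6.61 and 6.78 in wild type cells and overlapped. Its interaction was 5.23 ± 0.27 (adjusted p = 1.41e-06). SYTL2, which tethers secretory vesicles, had 4.99 ± 0.16 (adjusted p = 2.46e-08), and APOC2, a lipoprotein cofactor of lipoprotein lipase, 4.02 ± 0.13 (adjusted p = 2.46e-08). Falls in OCM1 with MUM2B not passing were led by the neutrophil collagenase MMP8 (interaction -3.11 ± 0.22, adjusted p = 1.62e-05), the pigment enzyme TYRP1 (interaction -2.57 ± 0.16, adjusted p = 6.16e-06) and the endocytic protein AMPH (interaction -1.73 ± 0.13, adjusted p = 2.83e-05). All 3 were at levels of at most 6.15 on every MUM2B array, where a fall could hardly have been measured. On replicate 1 the OCM1 difference was 1.14 for SERPINA3, 2.78 for APOC2 and -1.37 for AMPH, but -6.17 for SYTL2 and 2.65 for MMP8, both of the other sign. In the 12-array fit the TYRP1 interaction was -0.288 (adjusted p = 0.986). Those of SERPINA3 (3.94, adjusted p = 0.866), SYTL2 and MMP8 did not pass there either, while those of APOC2 and AMPH passed.

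In MUM2B alone, TXNIP, an inhibitor of thioredoxin and of glucose uptake, rose by 3.22 ± 0.50. Its levels were 9.50 and 11.69 in MUM2B CANT1, against 7.14 and 7.61 in MUM2B wild type, so replicates 2 and 3 of the CANT1 group differed by over 2 units, and the interaction of -3.07 ± 0.71 (adjusted p = 0.0116) did not pass without OCM1 wild type replicate 3. The urea transporter SLC14A1 (interaction -2.50 ± 0.21, adjusted p = 3.75e-05) and HSD11B1, which activates cortisol (interaction -2.43 ± 0.30, adjusted p = 0.00044), also rose in MUM2B. KLF9, a zinc finger factor known to be induced by glucocorticoids, had -2.34 ± 0.42 (adjusted p = 0.00348). The vasoconstrictor EDN1 (interaction 1.61 ± 0.24, adjusted p = 0.00129), FAM111B (interaction 1.5 ± 0.31, adjusted p = 0.00682) and IGFBP3, which binds insulin-like growth factors (interaction 1.49 ± 0.27, adjusted p = 0.00382), fell in MUM2B. In OCM1 all 3 were dim on each array, at levels of at most 7.05, where a fall could hardly have been measured. EDN1 stood at 7.53 and 6.94 in MUM2B CANT1, against 8.75 and 8.92 in MUM2B wild type.

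Other genes passed in both lines in 1 direction but by unequal amounts. BST2, an interferon-induced protein that tethers viruses, rose by 3.53 ± 0.11 in OCM1 and 0.37 ± 0.11 in MUM2B, and its levels in MUM2B (6.32 and 6.28 with CANT1 and 5.85 and 6 in wild type) were close to the floor. DSP, the desmosome protein desmoplakin, rose by 2.61 ± 0.13 and 0.54 ± 0.13. SOCS2, a cytokine signalling inhibitor, fell in both, by 0.31 in OCM1 and by 1.13 in MUM2B. The small nucleolar RNA SNORD17 also fell in both, but its interaction, -0.75 ± 0.21 (adjusted p = 0.026), was lost in 5 alternatives besides the 12-array fit, among them the omission of OCM1 CANT1 replicate 2.

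Several gene lists had more passing members on 1 side, with few of them opposed. Of 26 NF-kB targets and inflammatory cytokines, 11 (42.3%, against 10.7% of all tested genes) had a lower CANT1 difference in OCM1 and 1 (3.85%, against 11.3%) a higher one, and the list median was -0.00612 in OCM1 and 0.555 in MUM2B. Only NFKBIZ was opposed (3.85%, against 1.26% of all tested genes). Singly, 15 of the 26 rose in MUM2B and 3 in OCM1, where 14.3% and 13.9% of all tested genes rose. The cytokine IL1B stood at 13.35 and 13.41 in MUM2B CANT1, against 10.97 and 11.64 in MUM2B wild type. It rose by 2.07 ± 0.19, the chemokine CXCL8 rose by 1.68 ± 0.11 and TNFAIP3, a feedback inhibitor, by 0.94 ± 0.14. In OCM1 the same 3 genes had differences of -0.02 ± 0.19, -0.18 ± 0.11 and 0.04 ± 0.14, which did not pass. IL1B and CXCL8 were dim in OCM1, with levels no higher than 7.32.

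HLA class I and peptide loading genes leaned the same way, with 8 of 20 (40.0%, against 10.7%) lower and 1 higher in OCM1 and no opposed gene. PSMB9, a subunit of the immunoproteasome, had -1.29 ± 0.24 (adjusted p = 0.00445), HLA-E -1.03 ± 0.16 (adjusted p = 0.00167) and the peptide transporter TAP1 -0.87 ± 0.18 (adjusted p = 0.00712). Interferon-stimulated genes held 10 of 31 (32.3%, against 10.7%) lower and 4 (12.9%, near the 11.3% of all tested genes) higher in OCM1, with ISG20 (interaction -1.51 ± 0.18, adjusted p = 0.000325) and UBE2L6 (interaction -1.33 ± 0.18, adjusted p = 0.000657) rising in MUM2B alone and IFI6 (interaction 1.18 ± 0.25, adjusted p = 0.00719) in OCM1 alone. The list medians were 0.311 in OCM1 and 0.372 in MUM2B, and 12 of the 31 members rose in OCM1 and 15 in MUM2B, with none falling in either line. Of all tested genes 13.9% rose in OCM1 and 14.3% in MUM2B.

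**Figure D4:**
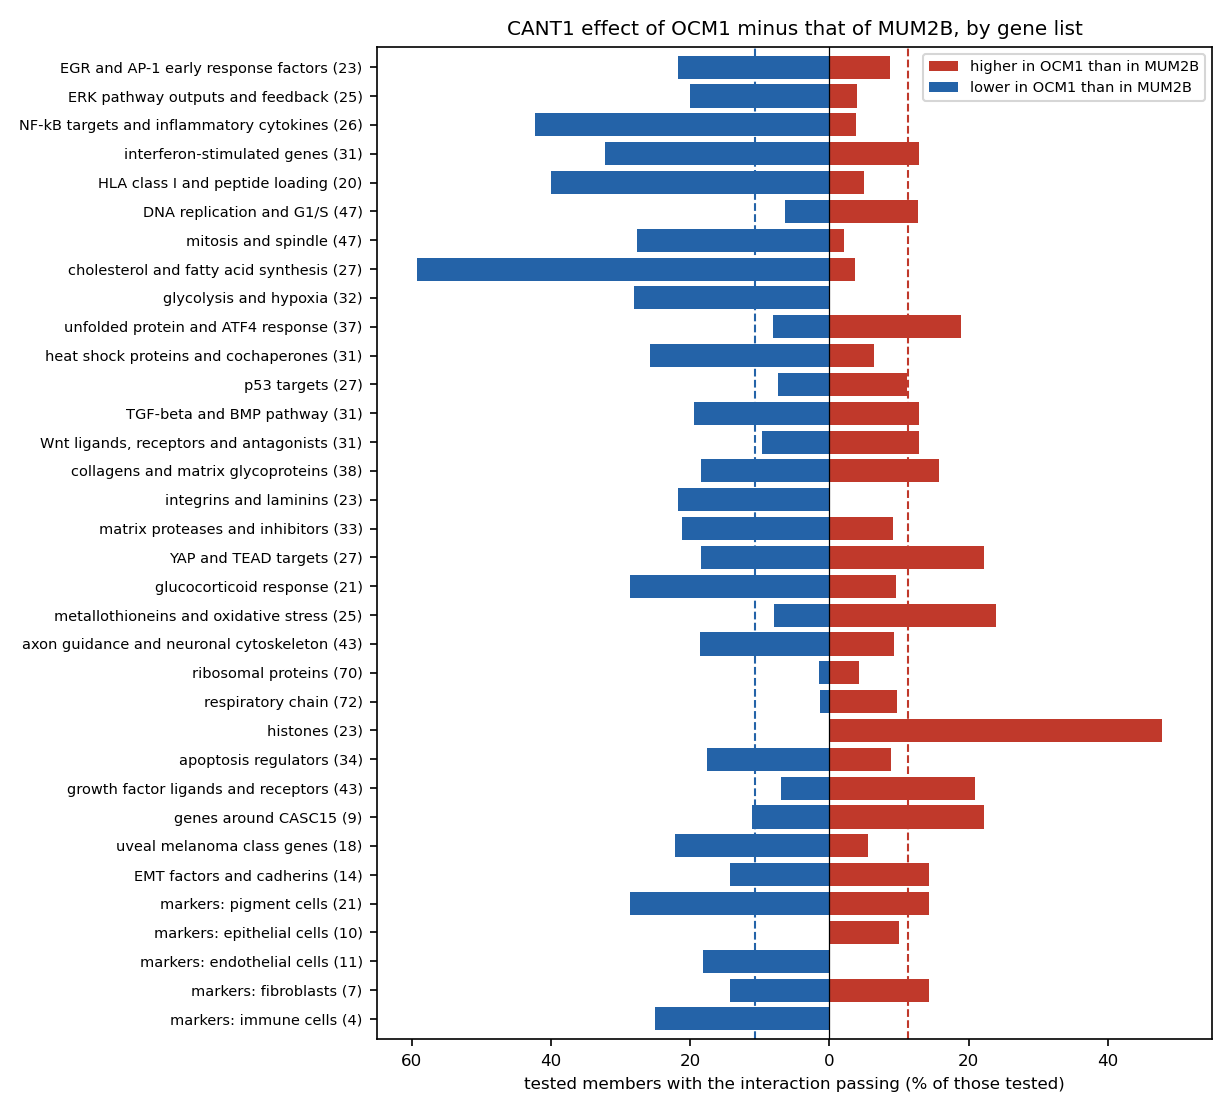
For each gene list (number tested in brackets), the bar to the right is the percent of tested members whose interaction passed and was higher in OCM1, and the bar to the left those lower in OCM1; dashed lines mark the same shares of all 12372 tested genes (11.3% and 10.7%). The sterol list reaches 59.3% to the left and the histones 47.8% to the right.

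Histone genes leaned the other way: 11 of 23 tested (47.8%, against 11.3%) were higher in OCM1 and none was lower. H2BC12 was opposed, at 12.28 and 12.22 in OCM1 CANT1, against 11.25 and 11.08 in OCM1 wild type, and at 10.82 and 10.47 in MUM2B CANT1, against 11.05 and 11.18 in MUM2B wild type, with an interaction of 1.56 ± 0.18 (adjusted p = 0.000264). H2AC6 rose in OCM1 alone (1.30 ± 0.10), as did H1-2 (1.24 ± 0.12) and H2AC8 (1.13 ± 0.10). Histone genes are near-identical copies, and probe sets may not tell them apart. The list has 64 genes, of which 41 were not tested. Growth factor ligands and receptors held 9 of 43 (20.9%, against 11.3%) higher and 3 (6.98%, against 10.7%) lower in OCM1, among them PDGFC (interaction 1.55 ± 0.14, adjusted p = 6.52e-05). VEGFB was the single member down in OCM1 and up in MUM2B (2.33%, against 1.26% of all tested genes).

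Of 47 mitosis and spindle genes, 32 fell and none rose in OCM1, where 9.61% of all tested genes fell. In MUM2B 7 fell and 2 rose, where 10.3% of all tested genes fell, and the list median was -0.0858. The interaction was lower in OCM1 for 13 (27.7%, against 10.7%) and higher for 1. UBE2C, which drives mitotic exit, stood at 10.14 and 10.36 in OCM1 CANT1, against 11.25 and 11.27 in OCM1 wild type, and at 13.08 and 12.98 in MUM2B CANT1, against 12.99 and 13.02 in MUM2B wild type, with an interaction of -1.03 ± 0.14 (adjusted p = 0.000867). Of 47 replication and G1/S genes, 21 fell in OCM1 and 37 in MUM2B, and none rose in either line. Their medians were -0.383 and -0.581, and 6 (12.8%, against 11.3%) were higher and 3 lower in OCM1, a share near that of all genes.

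Of the remaining lists, glycolysis and hypoxia genes (9 of 32 lower in OCM1, 28.1%, against 10.7% of all tested genes, and none higher) and heat shock genes (8 of 31 lower, 25.8%, and 2 higher) had more members with lower than with higher differences in OCM1. Among the second, the cochaperone STIP1 fell in OCM1 (-0.78 ± 0.09) and the cochaperone BAG3 rose (1.06 ± 0.10). JUN, an AP-1 subunit, rose in OCM1 alone (9.55 and 9.58 in OCM1 CANT1, against 7.76 and 7.76 in OCM1 wild type) and had an interaction of 1.89 ± 0.15 (adjusted p = 3.47e-05), while 5 of the 23 early response factors (21.7%, against 10.7%) were lower and 2 (8.7%, against 11.3%) higher in OCM1. Respiratory chain genes held 7 of 72 higher (9.72%, near the 11.3% of all tested genes) and 1 lower (1.39%, against 10.7%). Of the 9 tested genes around the CASC15 locus on chromosome 6, ID4 rose in both lines, more in MUM2B, where it was dim (0.32 ± 0.10 in OCM1 and 0.99 ± 0.10 in MUM2B), MRS2 and TDP2 fell in MUM2B alone (-0.64 ± 0.10 and -0.35 ± 0.09), and none was opposed. SOX4, a developmental transcription factor, rose in MUM2B (0.52 ± 0.11) and had an interaction that did not pass, at -0.30 ± 0.15 (adjusted p = 0.179). The ID4 interaction did not pass with an offset of 64 or with the mean of probe sets, that of MRS2 under both other probe set choices, and that of TDP2 in 10 alternatives besides the 12-array fit.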

How the data were processed

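Expression was measured on Affymetrix arrays. The authors' deposited table holds log2 signals per probe set, made with MAS5 per the submitters' processing notes. The base of the logarithm was read from the range of the values. Signals were taken out of the log, each array was scaled to a 2% trimmed mean of 500, 32 was added and log2 was taken again. Of 49395 probe sets (102 controls), 44988 had 1 gene in the platform annotation, 1832 several and 2473 none, and 44961 were matched to RefSeq by gene ID. Genes were tested with limma 3.58.1 in R 4.3.3 on the 8 arrays without a block (4 residual degrees of freedom, prior 7.03), with 1 moderated test for each of the 3 contrasts and Benjamini-Hochberg adjustment over 12372 genes. The fit was tested on simulated data. Arrays per group number 2, which limits the precision.

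The text names the 12 opposed genes with the largest interaction in each direction, 3 per class for 1 line alone, 2 per sign for both lines, and up to 6 passing members per list, plus measured genes around CASC15 and pigment markers. SQLE, FDPS, SCD, MVD, NSDHL, EBP, MVK, HSD17B7, FASN, SREBF1, SREBF2, ELOVL6 and VEGFB were added after their values were seen. The members and lists were chosen with earlier results of these data known.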

Additional observations from a re-analysis of the deposited data

Results flagged for a closer look

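The CANT1 differences of OCM1 and MUM2B were compared by the interaction itself, and the genes below were singled out by rule from those that passed it. Higher in OCM1 and opposed were SLC26A2 (2.85), SUSD5 (2.11), EMC10 (1.95), TTC39C (1.92), CHAMP1 (1.91), RPL27A (1.85), PLAGL1 (1.80), DLEU2 (1.76), TMEM18 (1.75), WDR73 (1.66), FAM169A (1.63) and ZNF252P (1.58). Lower in OCM1 and opposed were INSIG1 (-2.65), HMGCS1 (-2.27), VEPH1 (-2.02), MSMO1 (-2.02), NFKBIZ (-2.01), STC1 (-1.95), STON1 (-1.87), CAPG (-1.86), CASP1 (-1.81), LONRF1 (-1.80), PNPLA3 (-1.76) and KLHL7 (-1.72). With 1 line passing, the interaction was 5.23 for SERPINA3, 4.99 for SYTL2, 4.02 for APOC2, -3.11 for MMP8, -2.57 for TYRP1, -1.73 for AMPH, -3.07 for TXNIP, -2.50 for SLC14A1, -2.43 for HSD11B1, 1.61 for EDN1, 1.5 for FAM111B and 1.49 for IGFBP3. With both lines passing in 1 direction it was 3.16 for BST2, 2.08 for DSP, 0.83 for SOCS2 and -0.75 for SNORD17. These are log2 values of the interaction, each a difference between the 2 lines.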

How the results depend on the processing

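With each of the 8 arrays left out in turn, the interaction passed for 885 to 1410 genes higher and 759 to 1367 lower in OCM1, and 54 to 168 and 60 to 173 genes were opposed (up in OCM1 with down in MUM2B, then the reverse); in these fits the lone array of a group is assumed to vary like the other groups. The fit of all 12 arrays with a set term passed 5 higher and 1 lower, and 0 and 0 opposed; the cause was not tested. At least 2-fold in each line kept 2 higher and 2 lower, of which 1 and 1 opposed, by its stricter threshold. The remaining alternatives (scaling, offset, filter, probe set choice, trend, array weights) gave 1095 to 1572 higher, 1234 to 1506 lower, and 114 to 193 and 133 to 205 opposed. Same-numbered arrays deviated from their group means with correlations of -0.124 to 0.219, so the numbers are not taken to pair the samples. The replicate block gave 1459 higher and 1362 lower, with 172 and 180 opposed, and with the OCM1 CANT1 numbers crossed, an alternative chosen after seeing the data because same-numbered OCM1 arrays deviated with a correlation of -0.12, 1487 and 1405 with 178 and 171. Sterol genes opposed, also counted after seeing the data, numbered 9 to 11 apart from the omissions (5 to 11) and the 12-array fit (0). The leading 24 opposed genes passed with 1 sign in 498 of 498 gene-alternatives, the 12-array fit apart; over all 224 named genes 304 of 4653 lost the call. The leading 24 were chosen for large interactions on the same 8 arrays that these alternatives refit, so the choice itself favoured keeping the call. Only the interaction was counted, not whether both lines still passed with opposite signs. In the 12-array fit 21 of the 24 lost the call and 3 changed sign. Among the named genes whose interaction had passed, 4 changed sign in the other alternatives: CCN2 (-0.551, no _x_at or _s_at probe sets), DNAJB6 (0.128, no _x_at or _s_at probe sets), RRM2 (0.0458, mean of probe sets), TIE1 (0.02 without MUM2B wild type replicate 3, in a range of -0.622 to 0.02 over the omissions). In the 12-array fit the sign changed, with no adjusted p under 0.05, for these genes whose interaction had passed: ACTA2 (-0.182), BCL2A1 (0.419), CCNE2 (-0.043), CRYAB (0.661), CTNNA1 (0.0763), DUSP10 (0.0817), DUSP4 (1.05), EMC10 (-0.852), ERAP2 (0.188), FAM169A (-0.0708), GINS3 (-0.402), GINS4 (-0.0576), GPNMB (0.322), HLA-E (0.144), HLA-F (0.337), ITGA4 (0.036), ITGA6 (0.156), JUN (-0.505), MAFF (0.54), MYO5A (0.388), NID1 (-0.951), PFKFB4 (0.583), PLAGL1 (-0.249), PLXNC1 (0.0803), PSMB9 (0.303), RAB38 (0.505), S100A4 (0.781), SESN2 (-0.446), SLC24A5 (0.445), SLIT2 (-0.503), TGFBR3 (0.0577), TRPM1 (0.751), UCHL1 (-0.513); the cause was not tested. Some named genes whose interaction had not passed, such as MLANA and CAPN3, changed sign too. With 2 arrays a group, no interaction under 0.377 passed.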
